A study of Homo sapiens with 6 samples.

Results

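A set of 5 genes about which little is known was followed through the TGFβ response of HepG2, an immortal human line of liver cancer origin. These were C1orf106 (now INAVA), C1orf116 (SARG), FAM109A and FAM109B (PHETA1 and PHETA2), and COBLL1, and they were found by name as 5 of the 57773 genes in the deposited count table. Their choice rested on the difference between TGFβ and vehicle in these same libraries, in which some of them stood out, so their values in that comparison are given here as a description and not as a test. The RNA came from 6 HepG2 cultures below passage 20, grown in MEM with serum and kept in serum-free medium during treatment. Of these, 3 received human recombinant TGFB1 ligand at 5 ng/mL and 3 received the vehicle, all for 3 h, and the labels number the cultures 1 to 3 in each group. All cultures come from a single cell line, and nothing in the labels says how far apart the cultures were set up, so the spread between them may be partly technical.

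TGFβ binds a pair of receptor kinases that phosphorylate SMAD2 and SMAD3, which enter the nucleus with SMAD4 and change transcription within hours, often together with AP-1 factors. The 5 genes are not part of that signaling core. C1orf106 encodes an adaptor of epithelial cells that binds cytohesins, the exchange factors of the small GTPase ARF6, and affects the stability of cell junctions, and its locus has been linked to inflammatory bowel disease. FAM109A and FAM109B encode a pair of related endosomal proteins with a pleckstrin homology domain that bind the inositol phosphatases OCRL and INPP5B. C1orf116 was first described as a gene induced by androgen, and COBLL1 encodes a relative of the actin nucleator Cordon-bleu with a WH2 domain.

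The libraries held 60815385 to 100099136 gene-assigned reads each. Of the 57773 genes, 22747 had enough reads to be tested with edgeR's quasi-likelihood test, and 937 of these (4.12%) passed a false discovery rate (FDR) of 0.05, 707 (3.11%) higher and 230 (1.01%) lower with TGFβ. The treatment was visible in SMAD7, SKIL and PMEPA1, classical targets that were all called higher, with log2 fold changes of 1.72 (FDR 3.73e-05), 2.44 (FDR 8.43e-06) and 4.30 (FDR 4.41e-05). HepG2 identity was checked with 10 genes of the hepatocyte lineage, whose summed level was 37400 to 41900 CPM (reads per 1000000 of the scaled library) with vehicle and 36000 to 40700 with TGFβ. None of the 10 was called by edgeR or DESeq2, 1 was lower at an unadjusted P under 0.05, and 3 were lower with the culture number as a block. Over all genes the block called 1837 higher and 853 lower, and DESeq2 called 1003 higher and 382 lower. The endothelial markers KDR and TEK had 0 and 2 reads over all cultures and the leukocyte markers CD3E and PTPRC 0 and 1, and LUM and DCN of fibroblasts were near 0 CPM. Of 7 fibroblast and stellate cell markers 3 were testable and 0 passed with edgeR or DESeq2 (2 higher at an unadjusted P under 0.05 and 2 with the block). The summed level of the 7 was 52.5 to 57.3 CPM with vehicle and 62.7 to 71.3 with TGFβ. Of these markers PDGFRB had means of 6.77 and 15.8 CPM and COL1A1 7.54 and 11.2 CPM. The summed level of 5 leukocyte markers, nearly all of it LYZ, was 1130 to 1460 CPM with vehicle and 985 to 1080 with TGFβ, with 0 of 3 testable genes called by edgeR and 1 lower by DESeq2, at an unadjusted P under 0.05 and with the block. The part of these differences in the values of the 5 genes was not tested. The cultures are all of a single cell line, so these sums give RNA levels in the cultures and not numbers of fibroblasts or leukocytes.

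Promoter sequences from RefSeq (GRCh38.p14) are shown first because the counts compare transcript levels of genes with different start sites. The sequences were searched for matches to AP-1 and SMAD motifs, and binding at the matches was not tested. The windows run from 250 bases before to 50 bases after each listed start site, on the strand of the gene, and 4 of the 5 genes had entries, 7 windows in all. Shown are the single windows of C1orf116 and FAM109A. For C1orf106 the second of the pair is shown, which holds an AP-1 motif match, and for COBLL1 the first, which holds a SMAD match. Capitals mark matches to the AP-1 motif TGANTCA and to the SMAD core CAGAC or its complement GTCTG on either strand.
C1orf106, chr1:200894650-200894949, plus strand: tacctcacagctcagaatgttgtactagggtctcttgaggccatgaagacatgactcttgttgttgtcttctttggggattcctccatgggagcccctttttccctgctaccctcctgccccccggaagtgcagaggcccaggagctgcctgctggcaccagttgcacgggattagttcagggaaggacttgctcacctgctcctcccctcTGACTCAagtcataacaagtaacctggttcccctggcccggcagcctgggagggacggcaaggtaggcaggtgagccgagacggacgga
C1orf116, chr1:207032707-207033006, minus strand: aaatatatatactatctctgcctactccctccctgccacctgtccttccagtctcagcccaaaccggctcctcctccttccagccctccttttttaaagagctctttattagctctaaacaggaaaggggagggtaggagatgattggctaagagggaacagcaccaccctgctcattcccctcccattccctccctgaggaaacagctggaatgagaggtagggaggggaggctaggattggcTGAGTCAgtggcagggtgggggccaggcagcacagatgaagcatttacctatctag
FAM109A, chr12:111369046-111369345, minus strand: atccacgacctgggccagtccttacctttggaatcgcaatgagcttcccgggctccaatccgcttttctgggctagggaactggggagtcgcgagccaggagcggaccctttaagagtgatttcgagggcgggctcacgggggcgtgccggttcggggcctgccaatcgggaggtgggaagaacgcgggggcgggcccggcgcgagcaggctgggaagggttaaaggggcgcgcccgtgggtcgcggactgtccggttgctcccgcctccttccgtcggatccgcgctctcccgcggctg
COBLL1, chr2:164842027-164842326, minus strand: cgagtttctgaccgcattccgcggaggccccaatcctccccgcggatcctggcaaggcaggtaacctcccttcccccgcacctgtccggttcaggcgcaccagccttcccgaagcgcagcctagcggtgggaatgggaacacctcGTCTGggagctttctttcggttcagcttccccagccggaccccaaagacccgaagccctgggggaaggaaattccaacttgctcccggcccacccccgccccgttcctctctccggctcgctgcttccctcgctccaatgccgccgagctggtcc

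TGANTCA was found in 1 window of C1orf106, as TGACTCA starting at position -39 from the start site, and in that of C1orf116, as TGAGTCA starting at -6. It is present in 7.71% of all 35116 promoter windows of this length. Of these 2 genes, C1orf106 was higher and C1orf116 lower with TGFβ. A CAGAC or GTCTG core lay in 1 of the 7 windows, that of COBLL1 at -105, although 45.3% of all windows hold one. GGCGC, the GC-rich SMAD motif, was found in the window of FAM109A, in all 3 windows of COBLL1 and in the first window of C1orf106, with a share of 48.6% over all windows, and CAGGTG, the E-box bound by repressors such as SNAI1 and ZEB1, in the second window of C1orf106, that of C1orf116 and the first of COBLL1, with 20.6% over all windows. TATAAA was found in none of the 7, against 11.5% of all windows. Both strands were searched, and neighboring GGCGC matches on opposite strands overlap.

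The windows could each be placed once in GRCh37, the build of the count table, by exact match. The start site of C1orf116 fell on the end of the gene in the table, and that of FAM109A lay 26 bp inside the gene. For C1orf106 the start sites lay 483 and 3852 bp downstream of the table's gene start, and for COBLL1 they lay 1603, 1856 and 2247 bp inside the gene's 5′ end. The counts are per gene, so the use of one start site or another could not be read from them.

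C1orf106 (ENSG00000163362, hg19 chr1:200860176-200884863, plus strand) was higher with TGFβ and gained the most reads of the 5. It had 5041, 3970 and 3457 reads in vehicle cultures 1, 2 and 3 and 17246, 14561 and 12107 reads in TGFβ cultures 1, 2 and 3. Scaled by library size, its level was 53.7 ± 5.06 CPM (SD, n = 3) with vehicle and 175 ± 7.87 CPM (SD, n = 3) with TGFβ. Every TGFβ culture lay above every vehicle culture, and the lowest TGFβ value (166 CPM) was far above the highest vehicle value (57.1 CPM). Such separation of the groups, also given for other members below, comes with the choice of the genes from this contrast. How many of all tested genes separate in this way was not counted. The fitted log2 fold change was 1.70 (SE, the standard error of the fit, 0.0869), or 3.26-fold, which ranked 90 among the 707 genes called higher. By deposited RPKM, a level per length, it moved from the 76.0 to the 92.5 percentile of the tested genes.

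FAM109A (ENSG00000198324, hg19 chr12:111798455-111806925, minus strand) was also higher with TGFβ. It had 2809, 2611 and 1769 reads with vehicle and 8110, 6490 and 5254 reads with TGFβ. These correspond to 30.7 ± 1.70 CPM (SD, n = 3) and 78.8 ± 6.02 CPM (SD, n = 3), without overlap between the groups. The log2 fold change was 1.36 (SE 0.0839), or 2.57-fold, rank 146 of the 707. Its response was the most even of the 4 measurable genes: the log2 ratio of TGFβ to vehicle was 1.40, 1.36 and 1.33 for culture numbers 1, 2 and 3, an SD of 0.0342.

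FAM109B (ENSG00000177096, hg19 chr22:42470255-42475445), the paralog that shares OCRL binding, was barely present. It had 2, 2 and 0 reads with vehicle and 4, 2 and 3 reads with TGFβ, and was the only one of the 5 with too few reads to be tested. The scaled ratio of its 9 TGFβ reads to 4 vehicle reads was 2.09, and the exact 95% interval ran from 0.584 to 9.30 for counting error alone, so a change was not detectable at this depth. Over all cultures FAM109B held 0.048% of the reads of the pair, and the mean vehicle RPKM of FAM109A was 1420 times that of FAM109B, a ratio that rests on those 4 reads. In HepG2 cells, nearly all reads of this gene pair came from FAM109A, with and without TGFβ.

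C1orf116 (ENSG00000182795, hg19 chr1:207191866-207206101, minus strand) had the largest proportional change of the 4 genes with enough reads, and it was downward. It had 171, 215 and 133 reads with vehicle and 56, 50 and 39 reads with TGFβ, that is 2.23 ± 0.334 CPM (SD, n = 3) and 0.578 ± 0.0432 CPM (SD, n = 3). All TGFβ cultures lay below all vehicle cultures. The log2 fold change was -1.94 (SE 0.204), which left 26.0% of the vehicle level and ranked 5 among the 230 genes called lower. This gene was scarce to begin with, at the 22.4 percentile of vehicle RPKM, and its few reads set the precision. The 39 reads of TGFβ culture 3 have an exact 95% Poisson interval from 27.7 to 53.3, and the 133 reads of vehicle culture 3 one from 111 to 158.

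COBLL1 (ENSG00000082438, hg19 chr2:165510134-165700189, minus strand) was lower with TGFβ on many reads. It had 10950, 11943 and 8198 reads with vehicle and 8331, 6053 and 4847 reads with TGFβ. Its level was 134 ± 10.1 CPM (SD, n = 3) with vehicle and 75.9 ± 9.76 CPM (SD, n = 3) with TGFβ, again with no overlap. The log2 fold change of -0.82 (SE 0.102) left 56.8% of the vehicle level and ranked 65 among the 230. The cultures differed in size of response: the log2 ratio was -0.53 for number 1, -0.94 for number 2 and -1.0 for number 3. At 190056 bp its gene is the longest of the 5, at the 94.9 percentile of tested genes, while C1orf106, C1orf116 and FAM109A lie at the 58.9, 47.3 and 38.1 percentiles.

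**Figure D1:**
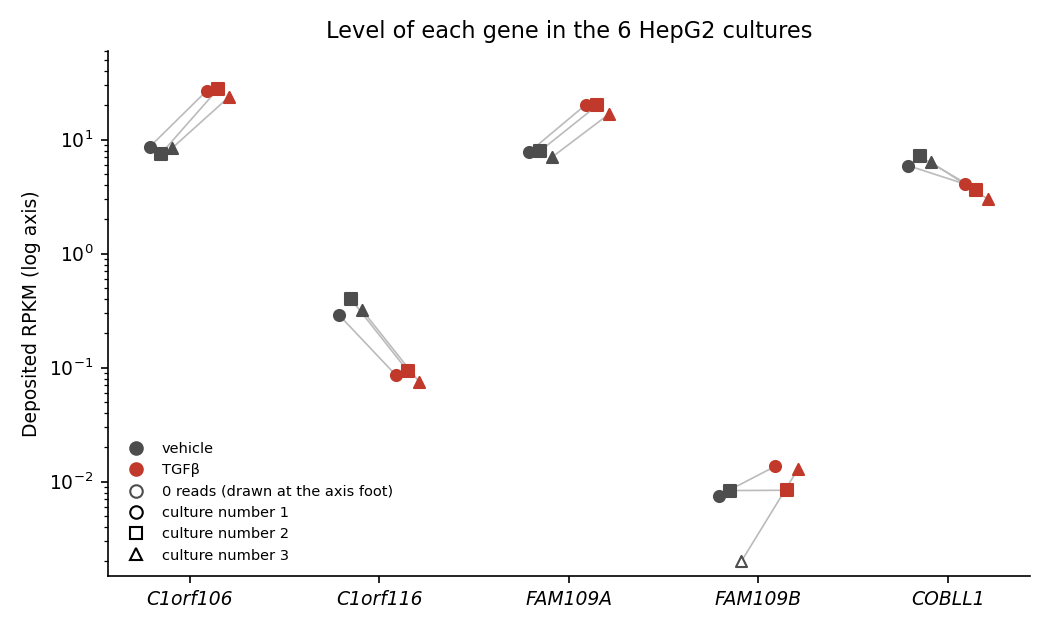
Deposited RPKM (log axis) of each gene in each of the 6 cultures, gray for vehicle and red for TGFβ, with lines joining cultures of the same number and the open gray symbol marking the vehicle culture of FAM109B with 0 reads, drawn at the foot of the axis. C1orf106 and FAM109A lie higher in all 3 TGFβ cultures and C1orf116 and COBLL1 lower, and FAM109B stays at 4 reads or fewer per culture.

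**Figure D2:**
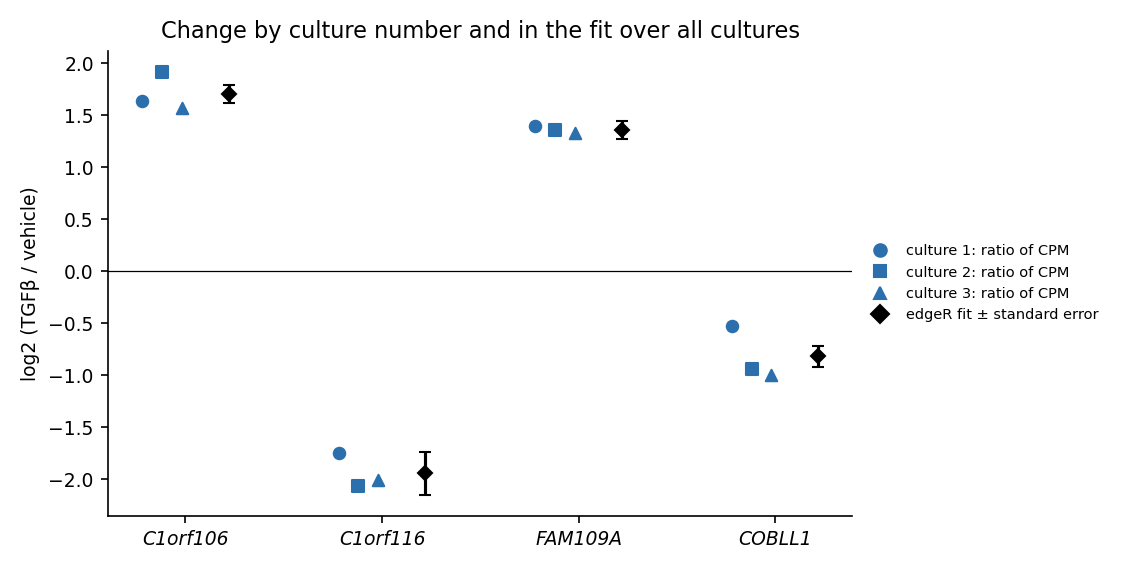
Log2 ratio of TGFβ to vehicle for culture numbers 1, 2 and 3 (blue, ratio of CPM) and the fold change of the edgeR fit over all cultures with its standard error (black) for the 4 genes with enough reads. The 3 ratios of FAM109A lie between 1.33 and 1.40, whereas those of COBLL1 run from -0.53 to -1.0.

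The 4 genes with enough reads were all among the called genes, 2 higher and 2 lower, against a background of 4.12% of all tested genes. They were picked from this contrast, and nothing is read from that count. The same 2 and 2 passed with DESeq2's size factors, without a filter, with DESeq2, with the culture number as a block and without any single culture. These refits use the libraries from which the genes were chosen, so they describe only the dependence on processing. According to the labels, TGFβ and vehicle cultures 1 shared a lane, as did cultures 2, while cultures 3 were on separate lanes. Within the shared lanes the log2 ratios of C1orf106 were 1.64 and 1.92, those of C1orf116 -1.75 and -2.06, those of FAM109A 1.40 and 1.36 and those of COBLL1 -0.53 and -0.94.

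Set side by side per length, 3 of the genes began at nearly the same level. This rests on deposited gene model lengths of 5413 bp for C1orf106, 3361 bp for FAM109A and 17176 bp for COBLL1, as do the ratios below. Without division by length, their vehicle means were 53.7, 30.7 and 134 CPM. With vehicle the deposited RPKM was 8.20 ± 0.594 for C1orf106, 7.56 ± 0.517 for FAM109A and 6.45 ± 0.624 for COBLL1 (SD, n = 3), followed by 0.336 ± 0.0581 for C1orf116 and 0.0053 ± 0.00461 for FAM109B. The values of C1orf106 and FAM109A overlapped between cultures, as did those of FAM109A and COBLL1. With TGFβ the order was the same, at 26.1 ± 2.06, 18.9 ± 2.00, 3.57 ± 0.536, 0.0848 ± 0.0092 and 0.0117 ± 0.00286, but no neighbors in it overlapped. Within single cultures, the RPKM of C1orf106 was 0.944 to 1.21 times that of FAM109A with vehicle and 1.32 to 1.43 times with TGFβ. Against COBLL1 it went from 1.05 to 1.46 times with vehicle to 6.57 to 7.92 times with TGFβ.

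Among the vehicle cultures alone, FAM109A, COBLL1 and C1orf106 varied less than the median tested gene and C1orf116 more. The comparison was not matched for level, and choosing genes from this contrast can favor a small spread. The SD of log2 CPM over the 3 vehicle cultures was 0.0812 for FAM109A, 0.108 for COBLL1, 0.140 for C1orf106 and 0.211 for C1orf116, beside a median of 0.161 over all tested genes. With TGFβ it was 0.0656 for C1orf106, 0.103 for C1orf116, 0.112 for FAM109A and 0.185 for COBLL1, beside a median of 0.166.

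Likeness to other genes was measured as Pearson's correlation of log2 CPM over the 6 libraries, among 12076 protein-coding genes with a mean of at least 1 CPM. The libraries share the treatment, and with 6 points many genes reach high values. Most like C1orf106 were FRMD8 (r = 0.9992, 29.5 to 56.6 CPM from vehicle to TGFβ), SCHIP1 (0.9984) and ST3GAL2 (0.9982). Most like FAM109A were MFHAS1 (r = 0.9996), KIAA0040 (0.9990) and KLF7, a Kruppel-like transcription factor (0.9971, 15.8 to 70.4 CPM). C1orf116 was followed most closely by AIM1 (r = 0.9988, 99.6 to 69.7 CPM), HS3ST3B1, a heparan sulfate sulfotransferase (0.9943), and UBE2G2 (0.9937). COBLL1 was followed by FAM8A1 (r = 0.9968, 113 to 77.1 CPM), ST6GALNAC6 (0.9963) and AGER (0.9958).

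The gene rows that overlap a member or lie within 100 kb of one were then examined, since position played no part in the choice. There were 45 such rows, of which 25 had enough reads, and their median log2 fold change was -0.11, against -0.01 for all tested genes. With edgeR and Benjamini-Hochberg adjustment, 3 of the 25 were lower (12%, beside 1.01% of all tested genes) and 0 were higher. Of the 3 calls, 2, those of C4BPB and SLC38A11, were lost when single cultures were left out. The remaining call, AC019181.2, overlaps COBLL1, which was chosen from this contrast, and reads of overlapping rows cannot be told apart. The share of 12% is therefore not independent of the choice of COBLL1. DESeq2 called 3 lower and 0 higher, and at an unadjusted P under 0.05 the counts were 4 and 1. Over all genes DESeq2 called 382 lower and 1003 higher. Beside C1orf106, the nearest tested genes were CAMSAP2 (log2 fold change 0.21, FDR 0.547) and KIF21B (0.42, FDR 0.336), which encode a microtubule minus-end binding protein and a kinesin. Beside FAM109A, SH2B3, which encodes a signaling adaptor, had 0.06 (FDR 0.892). No tested neighbor of C1orf106 or FAM109A passed the threshold.

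Beyond FAM109B, SMDT1, which encodes a subunit of the mitochondrial calcium uniporter, starts only 250 bp away. It had 854 reads or more in every culture, and its log2 fold change was 0.02 (FDR 0.954). The few reads of FAM109B lay beside a gene that was well covered.

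Near C1orf116, YOD1, a deubiquitinase gene 11093 bp away, had 0.00 on the log2 scale (SE 0.0844, FDR 0.990). C4BPB, which encodes the beta chain of the complement regulator C4b-binding protein, lies 56086 bp away. It fell from 69.8 ± 6.06 to 52.2 ± 1.69 CPM (SD, n = 3), or -0.42 in log2 fold change (SE 0.0809, FDR 0.0174), a much smaller change than that of C1orf116. C4BPB lost its call without vehicle replicate 2 (FDR 0.0703), vehicle replicate 3 (FDR 0.0521), TGFβ replicate 1 (FDR 0.0551) or TGFβ replicate 2 (FDR 0.0788), and its FDR was at most 0.0281 in the other alternatives.

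The neighborhood of COBLL1 held the other 2 called rows. AC019181.2 (ENSG00000233255) overlaps the 5′ end of COBLL1 over 2931 bp, runs 5655 bp beyond it and so covers all 3 RefSeq start sites. Its reads numbered 118, 141 and 78 under vehicle and 25, 42 and 24 under TGFβ, giving a log2 value of -1.96 (SE 0.289, FDR 0.00404), and passed under all 10 alternatives (FDR up to 0.0234). Its reads amounted to 0.951% to 1.18% of those of COBLL1 with vehicle and to 0.300% to 0.694% with TGFβ. Since the use of strand in counting is not given in the sources used here, reads of the overlapping rows cannot be told apart. COBLL1 had 11860 fewer unscaled reads over the TGFβ cultures than over the vehicle cultures and AC019181.2 went from 337 to 91, a far smaller difference in reads.

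SLC38A11, a gene of the family of amino acid transporters, lies 52507 bp upstream of COBLL1. It fell from 6.28 ± 1.25 to 3.41 ± 0.629 CPM (SD, n = 3), or -0.88 in log2 fold change (SE 0.191, FDR 0.0312). This call was lost without vehicle replicate 2 (FDR 0.136), vehicle replicate 3 (FDR 0.0908) or any of TGFβ replicates 1, 2 and 3 (FDR 0.0609, 0.0538 and 0.0566), and kept in the other 5 alternatives. On the other side, GRB14, which encodes an inhibitory adaptor of the insulin receptor, had -0.50 on the log2 scale (SE 0.236, FDR 0.405). The pseudogene row AC019181.3 inside COBLL1 was covered by 20, 11 and 19 vehicle reads and 9, 8 and 8 TGFβ reads (FDR 0.231), and SNORA70F, a small nucleolar RNA inside COBLL1, had 10 reads or fewer in every culture. RNA5SP111 had -0.82 (FDR 0.414). All tested rows of this neighborhood had negative values, but only AC019181.2 and SLC38A11 passed the threshold.

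**Figure D3:**
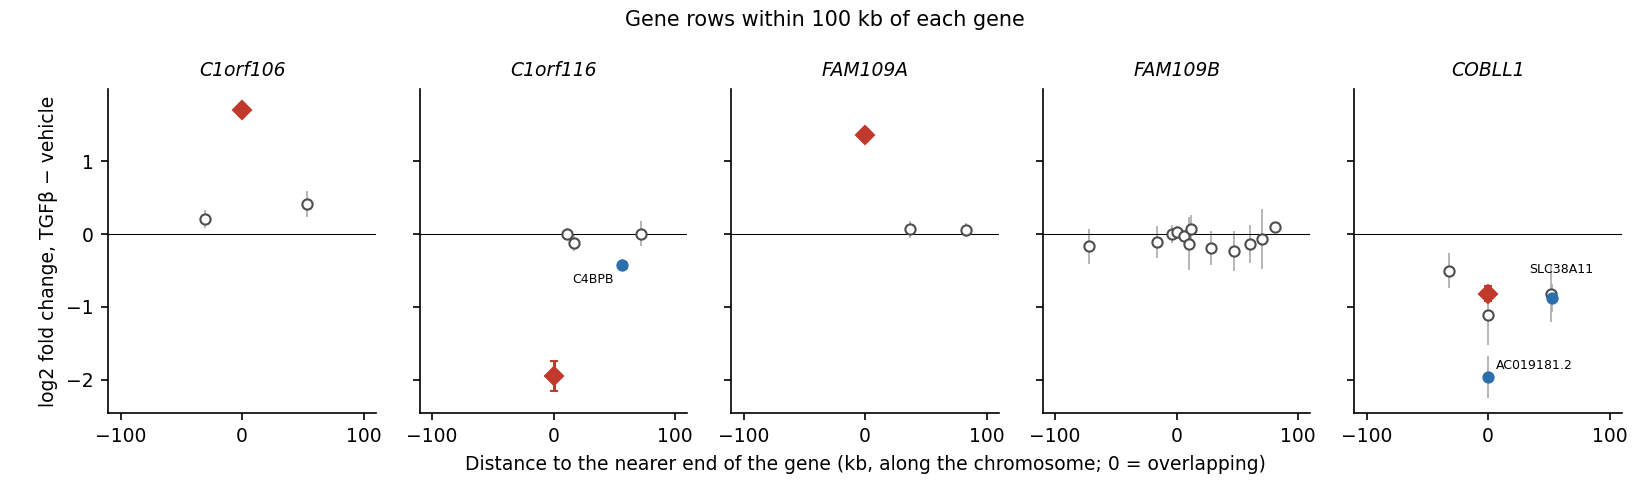
Log2 fold change (with standard error) of the tested gene rows within 100 kb of each gene, by distance in kb, 0 marking overlap. Red diamonds are the genes themselves, blue points the 3 neighbors with an FDR under 0.05 (C4BPB, AC019181.2, SLC38A11) and open points the other 22, and the rows around COBLL1 all lie below 0.

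Genes tied to the 5 by known partners, protein family, androgen response or epithelial identity were followed as lists taken from general knowledge. A place on a list does not make a gene a known partner of a member. All 5 lists below were written with earlier results of these data known. Their shares, set beside those of all tested genes, are therefore descriptions and not tests. The shares of all genes printed below are those of the main fit, with 707 called higher and 230 lower. Over all genes the block called 1837 higher and 853 lower, and DESeq2 1003 and 382. List counts by block or DESeq2 belong beside these larger numbers. No share of all genes at an unadjusted P under 0.05 is given here. The list around C1orf106 holds 21 genes of cytohesins, ARF6, the ubiquitin ligase subunits that act on cytohesins, NOD2 signaling, proteins related to C1orf106, and junctions. Of these, 19 were testable and 3 were higher (15.8% of them, beside 3.11% of all genes), with a median log2 fold change of 0.07. CDH1, the adherens junction protein E-cadherin, rose from 52.2 ± 9.51 to 90.9 ± 16.4 CPM (SD, n = 3), a log2 fold change of 0.80 (FDR 0.0173). TJP1, the tight junction scaffold ZO-1, rose from 103 ± 6.75 to 135 ± 12.1 CPM (0.39, FDR 0.0342). CCDC120, which shares the cytohesin-binding domain of C1orf106, rose from 5.64 ± 0.785 to 9.49 ± 1.99 CPM (0.75, FDR 0.0434).

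Each of these 3 calls was kept in 5 of the 10 alternatives. Each was lost without vehicle replicate 2, vehicle replicate 3, TGFβ replicate 1 or TGFβ replicate 2, CCDC120 and TJP1 also without vehicle replicate 1, and CDH1 also without the filter, with FDR values up to 0.127 for CDH1, 0.158 for TJP1 and 0.186 for CCDC120. Leaving out vehicle replicate 2 or 3 or TGFβ replicate 1 or 2 also lowered the calls over all genes, from 937 to between 485 and 653. No list gene was called lower by edgeR or DESeq2 (2 at an unadjusted P under 0.05). The other relatives, FRMD4A and FRMD4B, had log2 fold changes of -0.46 (FDR 0.560) and -0.52 (FDR 0.222). Of the cytohesins, CYTH1 had 0.31 (FDR 0.0535), CYTH2 0.33 (FDR 0.0914) and CYTH3 0.12 (FDR 0.817), while CYTH4 had 14 reads or fewer per culture. ARF6 itself had 0.07 (FDR 0.814). With the culture number as a block, 6 genes were higher. These were CDH1 (FDR 1.31e-05), TJP1 (FDR 0.00054), CCDC120 (FDR 0.00484), CYTH1 (FDR 0.00205), CYTH2 (FDR 0.00276) and CTNNB1 (FDR 0.00476).

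For FAM109A and FAM109B the list holds 26 genes of OCRL, its relatives and the endosomal machinery around them. Of 25 testable genes 2 were higher (8%, beside 3.11% of all tested genes), and the median log2 fold change was 0.12. Of the direct partners, OCRL had -0.07 on the log2 scale (SE 0.0669, FDR 0.788) and INPP5B -0.05 (SE 0.0903, FDR 0.878), and APPL1 and APPL2, endosomal adaptors that also bind OCRL, had 0.19 (FDR 0.291, and 0.045 with the block, where it was called higher) and 0.03 (FDR 0.932). SYNJ2, another inositol phosphatase, rose from 104 ± 5.60 to 148 ± 13.1 CPM (SD, n = 3), a log2 fold change of 0.51 (FDR 0.00767), and lost the call only without vehicle replicate 3 (FDR 0.0520). CLTB, a clathrin light chain, rose from 43.5 ± 6.69 to 75.6 ± 20.1 CPM (0.80, FDR 0.0312). Its FDR reached 0.338 over the alternatives, the call being lost without the filter and without vehicle replicate 2, vehicle replicate 3, TGFβ replicate 1 or TGFβ replicate 2.

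None of the list was lower by edgeR, DESeq2 or at an unadjusted P under 0.05, and with the block 7 were higher, among them PACSIN2 (FDR 0.0103), an F-BAR protein. Per length, the vehicle RPKM of FAM109A was 7.56, that of OCRL 8.0 and that of INPP5B 1.65. With TGFβ these were 18.9, 7.45 and 1.55, so that FAM109A went from near the level of OCRL to above it.

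Around COBLL1, 17 of 21 genes of COBL and other WH2 proteins, their binding partners and actin were testable. Here 3 were higher (17.6%, beside 3.11% of all tested genes) and the median log2 fold change was 0.21. SPIRE2 and SPIRE1, actin nucleators that act on vesicles, rose by log2 fold changes of 0.80 (SE 0.0911, FDR 0.00096) and 0.57 (SE 0.0774, FDR 0.00258), from 19.2 ± 0.873 to 33.6 ± 3.14 CPM and from 42.4 ± 3.27 to 63.1 ± 0.912 CPM (SD, n = 3). MTSS1, which joins actin and curved membranes, rose by 0.57 (FDR 0.00302). These 3 calls held under all 10 alternatives, with FDR values up to 0.00967, 0.0228 and 0.0236.

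COBL, the closest relative of COBLL1, had 0.41 on the log2 scale (SE 0.103, FDR 0.0589), opposite in sign to the -0.82 of COBLL1, and was called with the block (FDR 0.00254). Its RPKM was 1.01 with vehicle and 1.31 with TGFβ, below the 6.45 and 3.57 of COBLL1. Neither edgeR nor DESeq2 called any gene of the list lower (2 at an unadjusted P under 0.05), and with the block 7 were higher and 1, WASF3, was lower (FDR 0.0385). DESeq2 called 5 higher. LMOD1, a muscle actin nucleator, had 2 reads or fewer in each culture.

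The list around C1orf116 holds 14 genes of the androgen response and steroid receptors. Of 9 testable genes 2 were lower (22.2%, beside 1.01% of all genes), and the median log2 fold change was -0.0016. TMPRSS2, a membrane serine protease, fell from 3.93 ± 0.265 to 2.22 ± 0.170 CPM (SD, n = 3), a log2 fold change of -0.82 (FDR 0.0125), a call lost without vehicle replicate 3 (FDR 0.0773) or TGFβ replicate 2 (FDR 0.0594). ELL2, a transcription elongation factor, fell from 166 ± 5.22 to 113 ± 7.27 CPM (-0.56, FDR 0.00221), under all 10 alternatives (FDR up to 0.0158). FKBP5 had -0.02 (FDR 0.936) and NR3C1, the glucocorticoid receptor, 0.29 (FDR 0.139, and 0.00947 with the block). Higher calls numbered 0 with edgeR and with DESeq2, and 2 at an unadjusted P under 0.05.

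C1orf116 is known as a gene of epithelial cells, so 16 genes of epithelial identity were also counted. Of 11 testable genes 1 was higher (9.09%, beside 3.11% of all tested genes), with a median log2 fold change of 0.06. This was ELF3, an epithelial ETS factor, which rose from 16.7 ± 1.67 to 26.3 ± 1.46 CPM (SD, n = 3), a log2 fold change of 0.65 (FDR 0.00415) that was called in all 10 alternatives. The splicing factor gene ESRP2 had 0.06 (FDR 0.824) and GRHL1 -0.10 (FDR 0.830), whereas ESRP1 and GRHL2 were too scarce to be tested, with 13 and 2 reads or fewer per culture. Lower calls numbered 0 by edgeR, by DESeq2 and at an unadjusted P under 0.05, and with the block LLGL2 was also higher (FDR 0.0418).

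**Figure D4:**
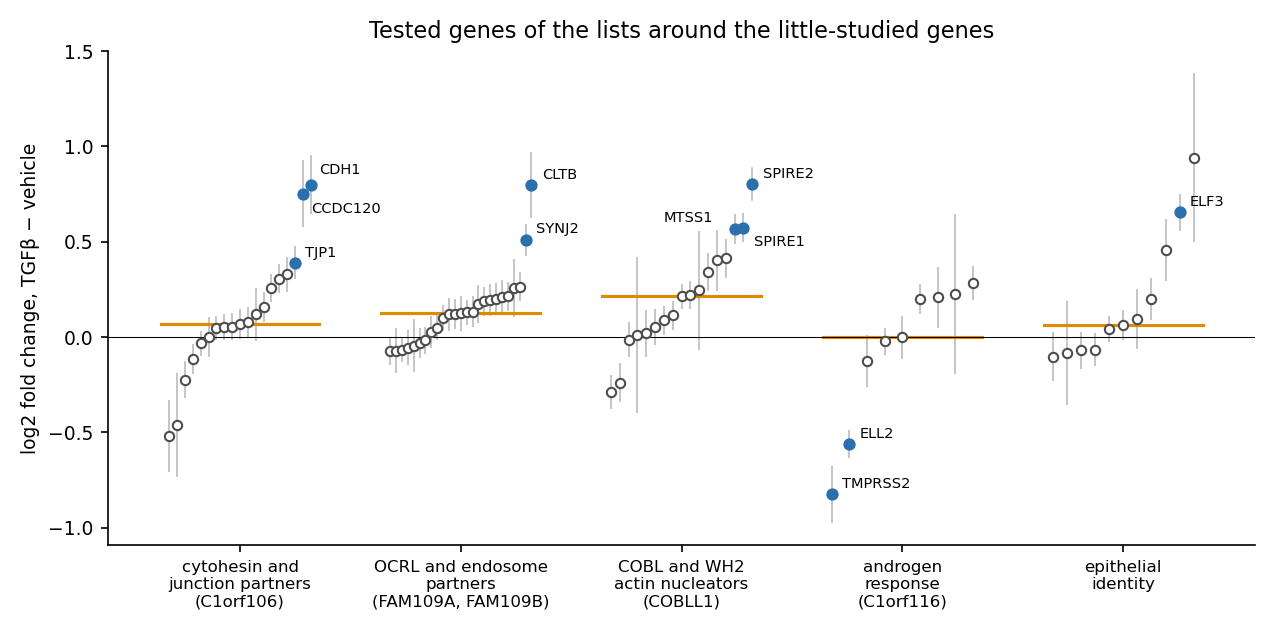
Log2 fold change with standard error of the testable genes of the 5 lists, ordered within each list, with blue named points for genes with an FDR under 0.05, open points for the others and an orange line at each list's median. The medians lie between -0.0016 and 0.21, and the called genes of the first 3 lists and of the epithelial list are all higher, those of the androgen-response list lower.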

How the data were processed

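Counts and RPKM per gene were deposited by the authors for 6 HepG2 cultures (3 vehicle, 3 TGFβ). Paired reads of TruSeq v2 libraries were aligned to hg19, per the labels with TopHat2 (2.0.6) and HTSeq, within the authors' MAPRseq workflow. The deposited counts are raw whole numbers, and the deposited RPKM values are the counts scaled by the authors to the gene model length and a library total. RPKM was used for levels between genes. Neither the annotation release nor the strand setting is given in the sources used here.

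Groups and culture numbers came from the sample titles. The members and lists were chosen with earlier results of these data known. Counts were fitted with edgeR 4.0.16 in R 4.3.3 (TMM, filterByExpr, robust quasi-likelihood F test, no block, Benjamini-Hochberg over 22747 genes). Standard errors follow from the F statistic, and CPM values use the TMM library sizes. The fit was tested on simulated counts. Replicates differed by 21.6 to 46.7 chi-square units per gene, far above counting noise. Vehicle and TGFβ cultures of the same number deviated together from the group means (r = 0.227 to 0.366), those of different numbers at r = 0.0101 at most. The numbers were therefore taken as pairing in the replicate block and in the ratios by culture number. The main fit and its FDR values leave this pairing out. Alternatives were DESeq2's size factors, no filter, DESeq2 1.42.0, the replicate block, and leaving out each culture. Named genes were the members, neighbors that overlap, are nearest or passed, list genes that passed or stand first in their list, the 3 likest genes (log2 CPM, prior count 2), and the treatment checks; ARF6, FRMD4A, FRMD4B, CTNNB1, PACSIN2, WASF3, LLGL2 and the cell type markers were named after their values were seen. Some genes that this rule names are not reported here. PECAM1 of the marker lists was not matched and not used here. Intervals cover counting error only.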

Additional observations from a re-analysis of the deposited data

How the results depend on the processing

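The 4 genes with enough reads kept their direction and their call under all 10 alternatives. The genes were chosen from this contrast in the same libraries, so this is a description and not a test of their response. Their log2 fold changes ranged from 1.62 to 1.74 for C1orf106, from -2.05 to -1.82 for C1orf116, from 1.31 to 1.41 for FAM109A and from -0.92 to -0.74 for COBLL1. FAM109B was removed by the filter and has no value there; without one it had 1.0 on the log2 scale (SE 1.09). The replicate block, used because same-numbered cultures deviated together, raised the number of called genes from 937 to 2690, of which 1837 were higher and 853 lower. It called 6 genes of the cytohesin and junction list in place of 3, 7 of the OCRL and endosome list in place of 2, 8 of the COBL and WH2 list in place of 3, 2 epithelial identity genes in place of 1, 3 hepatocyte genes and 1 leukocyte gene lower in place of 0, and 2 fibroblast and stellate cell genes higher in place of 0. DESeq2 called 1385 genes over all, with 5 of the cytohesin and junction list and 5 of the COBL and WH2 list. Without the filter 1206 genes were called, and the COBL and WH2 list had 5 calls and the OCRL and endosome list 1. Leaving out single cultures moved the called genes between 485 (without vehicle replicate 3) and 998, the calls of the cytohesin and junction list between 0 and 4, those of the OCRL and endosome list between 0 and 2, those of the androgen-response list between 1 and 2 and those of the neighbors between 1 and 3. Without vehicle replicate 2 there were 518 called genes and without TGFβ replicate 2 there were 561. Apart from what such alternatives change by construction (fewer samples, more genes tested), the cause was not tested. Depth limited FAM109B, with 13 reads in all, and set the precision of C1orf116.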
